A study of Mus musculus with 8 samples.

Results

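The 7 genes described here, Ly6a, Ly6c1, Ly6c2, Ly6d, Ly6e, Ly6k and Psca, encode small cell-surface proteins of the Ly6/uPAR family. They were taken by name from a table of 36333 genes measured by RNA-seq in the ventral prostate of 12-month-old FVB/N male mice. The 4 hSKP2-KI mice carried a human SKP2 coding sequence behind a P2A peptide, placed in exon 1 of the endogenous probasin gene (Pbsn), so that the probasin promoter drove it in prostate epithelium. The 4 wild-type (WT) mice were FVB/N without the insertion. The probasin gene is X-linked, and knock-in males came from heterozygous females mated to WT males. Several founder lines were made, and which of them gave these 4 mice is not given in the sources used here. The genes were chosen by their TPM values in hSKP2-KI against WT mice in these same libraries, where most of them differed. Their differences between genotypes are therefore given as a description, with no test.

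Ly6/uPAR proteins share a compact fold of finger-like loops held by disulfide bonds. Most of them are tied to the outer face of the plasma membrane by a glycosylphosphatidylinositol (GPI) anchor rather than by a membrane-spanning segment. In prostate, Ly6a (also called Sca-1) and Psca (prostate stem cell antigen) have long been used as surface markers of proximal and progenitor-enriched epithelial cells, and Ly6d as a marker of luminal progenitors. Other members mark blood vessels or leukocytes.

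The knock-in was visible in every library. Skp2 was at 1.05 to 2.27 TPM in WT and at 37.3 to 60.6 TPM in hSKP2-KI mice, and how reads of the inserted human sequence were assigned is not given in the sources used here. Pbsn fell from 3980 to 9232 TPM in WT to 93.0 to 174 TPM in hSKP2-KI mice. TPM is the share of a gene among all transcripts of a library after correction for transcript length, so every library sums to the same total. Sbp, Sbpl and Spink1, the most abundant secretory transcripts of this lobe, took 40.4% to 45.8% of that total in WT and 32.1% to 34.3% in hSKP2-KI mice, which moves the share left for all other genes. The median difference over the 13080 genes tested was 0.23 on the log2(TPM + 1) scale as deposited and -0.01 after median-ratio scaling, which sets each library by its typical gene. Values after median-ratio scaling are given for part of the results, and a difference given without a scale is as deposited.

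All 7 members lie within the Ly6 gene cluster of chromosome 15 (build GRCm38). From the proximal end these are Psca at chr15:74714839-74717065, Ly6d at chr15:74762056-74763567, Ly6k at chr15:74796874-74799968, Ly6e at chr15:74955025-74959904, Ly6a at chr15:74994877-74998031, Ly6c1 at chr15:75044018-75048920 and Ly6c2 at chr15:75108161-75112066. Gene copies in such a cluster can share reads, so the transcripts were compared. Of the 695 windows of 150 bases along the Ly6c1 transcript, 39 (5.61%) were also present in Ly6c2, and 39 of 673 (5.79%) the other way round. The other 5 members shared no window of that length with any other annotated transcript. Ly6c1 and Ly6c2 are the closest pair, with 97.7% identity over their coding sequence, while Ly6a was 81.8% identical to Ly6c1 and 81.6% to Ly6c2. Of the 393 coding bases 9 differ, and the longest stretch without a difference runs for 188 bases. Bases 1 to 300 of both spliced coding sequences (GENCODE vM21, minus strand) are shown so that the likeness of the pair can be seen, and capitals mark the 7 differences that fall in this stretch.
Ly6c1: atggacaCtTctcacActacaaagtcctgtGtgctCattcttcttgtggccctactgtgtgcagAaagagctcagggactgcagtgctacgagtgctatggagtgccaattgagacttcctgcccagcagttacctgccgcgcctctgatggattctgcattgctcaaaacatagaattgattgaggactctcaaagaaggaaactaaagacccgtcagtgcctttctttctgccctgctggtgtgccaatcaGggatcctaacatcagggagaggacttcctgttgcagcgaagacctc
Ly6c2: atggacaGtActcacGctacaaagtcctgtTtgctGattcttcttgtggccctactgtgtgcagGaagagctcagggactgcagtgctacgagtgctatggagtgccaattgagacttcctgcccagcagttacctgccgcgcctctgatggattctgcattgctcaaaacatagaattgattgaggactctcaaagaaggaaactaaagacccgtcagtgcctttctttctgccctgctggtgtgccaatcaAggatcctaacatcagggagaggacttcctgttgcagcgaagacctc

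The promoters of this pair differ more than the coding sequences. The 250 bases upstream of an annotated start (RefSeq, GRCm38.p6, minus strand) were 65.6% identical in alignment. That share is of all 250 bases, of which 216 aligned. The windows are offset against each other, and bases left unaligned count as differences, which lowers the identity. Both windows are shown because the 2 genes, so alike in their coding parts, were at very different levels in these prostates, as given further on. The Ly6c1 window is chr15:75048838-75049087 and the Ly6c2 window chr15:75111972-75112221. Both genes have 2 starts in the promoter table, and the one further upstream was used. The annotated genes reach further still, so that 83 bases of the Ly6c1 window and 95 of the Ly6c2 window lie inside them, and the identity and the distances given here hold for these starts. Capitals mark TATAAA, the letters of a TATA box, searched on both strands and found in 12.4% of 32851 mouse promoters.
Ly6c1 promoter: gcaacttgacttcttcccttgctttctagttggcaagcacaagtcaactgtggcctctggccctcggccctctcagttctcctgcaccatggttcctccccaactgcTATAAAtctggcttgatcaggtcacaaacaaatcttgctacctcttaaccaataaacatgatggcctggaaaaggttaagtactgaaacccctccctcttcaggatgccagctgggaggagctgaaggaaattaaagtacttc
Ly6c2 promoter: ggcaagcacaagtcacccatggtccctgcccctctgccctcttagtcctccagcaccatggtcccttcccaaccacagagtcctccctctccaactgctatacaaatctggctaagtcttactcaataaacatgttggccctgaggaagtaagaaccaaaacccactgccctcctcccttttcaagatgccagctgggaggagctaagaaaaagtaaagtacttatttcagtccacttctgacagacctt
TATAAA occurred once in the Ly6c1 window, 143 bases before the start, and not in the Ly6c2 window. TTCNNNGAA, the site of STAT factors (7.02% of all promoters), was found in neither window on either strand.

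Most of these genes were higher in every hSKP2-KI mouse than in every WT mouse. These 5 of 7 members were Ly6a, Ly6c1, Ly6d, Ly6e and Psca, against 34.0% of all 13080 genes tested. After median-ratio scaling the number was again 5, against 10.3% of all genes. In the other direction 0 members were without overlap on either scale, against 1.03% and 8.91% of all genes. Because this contrast chose the members, nothing is read from that excess. All 7 members passed the filter on low values (1 TPM in at least 4 of the 8 mice). The median difference over the members was 1.19 on the log2(TPM + 1) scale as deposited and 0.93 after median-ratio scaling. In whole tissue, a change in the number of cells that express a gene and a change in the RNA per cell cannot be told apart.

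**Figure D1:**
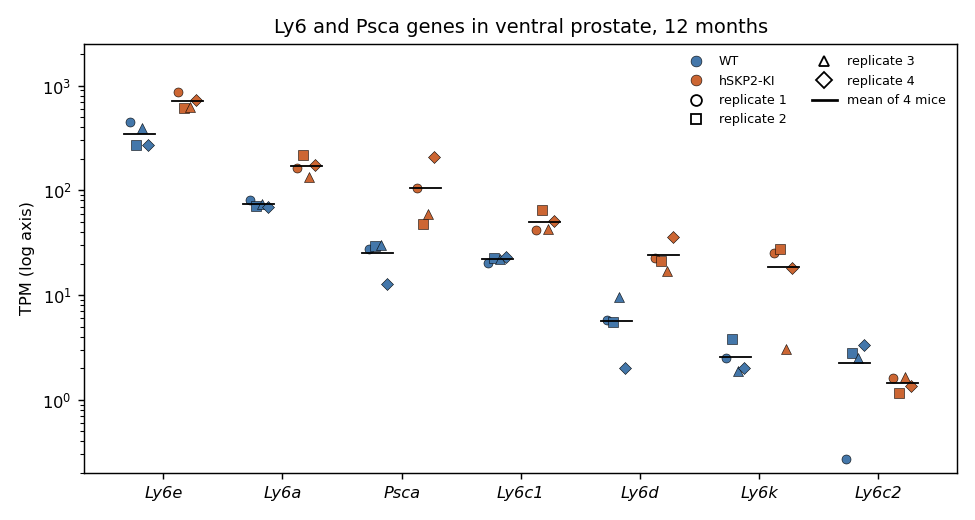
TPM of the 7 genes in each mouse, on a log axis; each point is a mouse, the symbol gives its replicate number and the line is the mean of 4 mice. For Ly6e, Ly6a, Psca, Ly6c1 and Ly6d all hSKP2-KI points lie above all WT points, for Ly6k hSKP2-KI replicate 3 falls among the WT points, and for Ly6c2 the genotypes overlap.

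Psca and Ly6d, the 2 members best known from progenitor-enriched luminal epithelium, had the largest differences among the members whose genotypes did not overlap. Psca was at 27.6, 29.6, 30.3 and 12.7 TPM in WT replicates 1 to 4 and at 105, 48.1, 59.5 and 209 TPM in hSKP2-KI replicates 1 to 4. WT replicate 4 was the lowest and hSKP2-KI replicate 4 the highest of all 8, and the lowest hSKP2-KI mouse was 1.59 times the highest WT mouse. The mean was 25.1 ± 8.33 TPM in WT and 105 ± 73.2 TPM in hSKP2-KI mice (SD, n = 4 each), a difference of 1.86 (SE 0.41) on the log2(TPM + 1) scale. The ratio of the means was 4.20 with all mice and 2.83 without hSKP2-KI replicate 4. Much of the average therefore came from that mouse, although the genotypes did not overlap without it.

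Ly6d was at 5.74, 5.53, 9.58 and 2.00 TPM in WT and at 22.6, 21.3, 16.9 and 35.7 TPM in hSKP2-KI mice. The same mice, WT replicate 4 and hSKP2-KI replicate 4, were again lowest and highest. The means were 5.71 ± 3.10 and 24.1 ± 8.09 TPM (SD, n = 4 each), which gives a ratio of 4.22, or 3.54 without hSKP2-KI replicate 4. The relative spread among WT mice was wide for this gene, with a coefficient of variation of 54.2% against 33.6% in hSKP2-KI mice.

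Ly6k, best known from male germ cells and from tumours, was low in WT and variable in hSKP2-KI prostates. It was at 2.51, 3.77, 1.89 and 2.01 TPM in WT and at 25.1, 27.5, 3.06 and 18.0 TPM in hSKP2-KI mice. In 3 of 4 hSKP2-KI mice it lay far above the WT range, and in hSKP2-KI replicate 3 it lay within it. The highest hSKP2-KI mouse was 8.99 times the lowest, the largest such ratio within hSKP2-KI mice of any member. By coefficient of variation Psca was wider in hSKP2-KI mice, at 69.5% against 59.8% for Ly6k. The difference on the log2(TPM + 1) scale was 2.16 (SE 0.51) with all mice, and 2.80 without hSKP2-KI replicate 3. At these levels a WT value stands on few reads, and the read depth behind a TPM value is unknown.

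Ly6e, an interferon-inducible protein that also acts in virus entry and in the placenta, was the most abundant member in all 8 mice. It was at 447, 271, 392 and 272 TPM in WT and at 876, 618, 628 and 731 TPM in hSKP2-KI mice. WT replicates 2 and 4 were close together and below WT replicates 1 and 3, and no hSKP2-KI mouse reached down to the WT range. The means were 346 ± 88.3 and 713 ± 120 TPM (SD, n = 4 each), a ratio of 2.06 and a difference of 1.06 (SE 0.17) on the log2(TPM + 1) scale, or 0.79 after median-ratio scaling.

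Ly6a and Ly6c1, both surface markers of endothelial cells and of other stromal and progenitor cells, had the tightest WT values. Ly6a was at 81.0, 70.9, 74.3 and 69.5 TPM in WT and at 163, 217, 135 and 175 TPM in hSKP2-KI mice. Ly6c1 was at 20.1, 22.5, 22.3 and 23.0 TPM in WT and at 41.8, 65.3, 42.3 and 51.1 TPM in hSKP2-KI mice. For both genes hSKP2-KI replicate 2 was highest, and all 4 hSKP2-KI mice lay above the WT range. The coefficient of variation in WT mice was 6.98% for Ly6a and 5.89% for Ly6c1, and in hSKP2-KI mice 19.8% and 21.9%. The means of Ly6a were 73.9 ± 5.16 and 173 ± 34.2 TPM and those of Ly6c1 22.0 ± 1.29 and 50.1 ± 11.0 TPM (SD, n = 4 each). Their ratios of means, 2.34 and 2.28, were nearly alike, and the lowest hSKP2-KI mouse was 1.67 and 1.82 times the highest WT mouse.

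Ly6c2, the copy carried by classical monocytes, was low and did not separate the genotypes. It was at 0.271, 2.82, 2.48 and 3.32 TPM in WT and at 1.62, 1.15, 1.66 and 1.35 TPM in hSKP2-KI mice. All hSKP2-KI values lay between the lowest WT mouse, replicate 1, and the other 3 WT mice. The difference was -0.26 (SE 0.32) on the log2(TPM + 1) scale. Without WT replicate 1 it was -0.67, with no overlap between the genotypes, so that single mouse decided whether they overlapped. Ly6c1 and Ly6c2 therefore stood at very different levels, with means of 22.0 and 2.23 TPM in WT and of 50.1 and 1.44 TPM in hSKP2-KI mice, although their coding sequences are nearly the same.

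**Figure D2:**
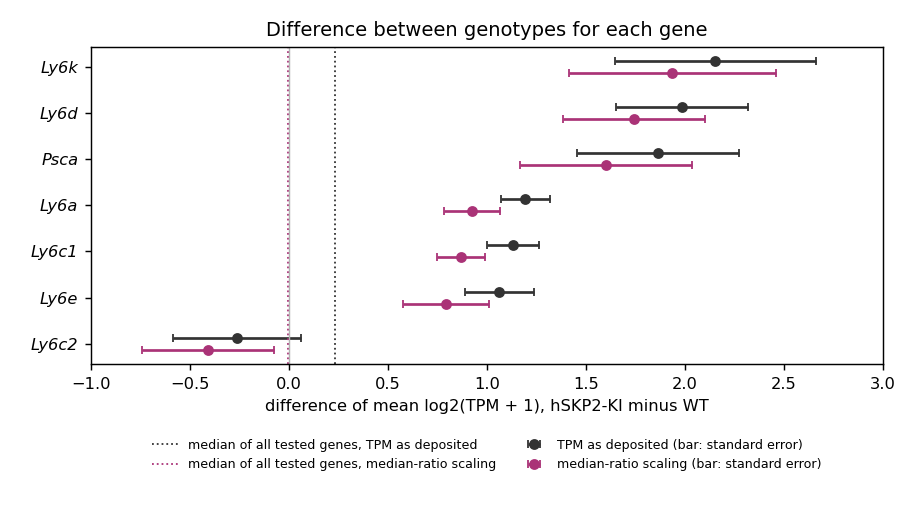
Difference of mean log2(TPM + 1), hSKP2-KI minus WT, for each gene with its standard error (4 mice per genotype), from TPM as deposited and after median-ratio scaling; dotted lines mark the median of all 13080 tested genes at 0.23 and -0.01. The scaling lowers every member and leaves their order as it was, from Ly6k at 2.16 and 1.94 to Ly6c2 at -0.26 and -0.41.

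Placed among all genes tested, the differences fell into separate ranges. Counted from the largest log2 difference, Ly6k ranked 19, Ly6d 30 and Psca 38 of 13080, Ly6a, Ly6c1 and Ly6e ranked 167, 200 and 246, and Ly6c2 ranked 12750. After median-ratio scaling the ranks were 21, 31, 40, 192, 225, 288 and 12582 in the same order.

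The order of the levels changed little between genotypes. In WT mice Ly6e (346 TPM) stood 4.67 times above Ly6a (73.9 TPM), and Ly6a 2.95 times above Psca (25.1 TPM), each time with no overlap. Psca and Ly6c1 (22.0 TPM) overlapped, and so did Ly6d (5.71 TPM), Ly6k (2.54 TPM) and Ly6c2 (2.23 TPM) between neighbours. In hSKP2-KI mice Ly6e (713 TPM) again stood apart from Ly6a (173 TPM), but Ly6a, Psca and Ly6c1 overlapped between neighbours, as did Ly6d (24.1 TPM) and Ly6k (18.4 TPM), and Ly6k was 12.7 times Ly6c2 (1.44 TPM) with no overlap. The summed level of the 7 genes was 384 to 584 TPM in WT and 886 to 1236 TPM in hSKP2-KI mice. Ly6e made up 66.7% to 76.5% of that sum in WT and 59.9% to 70.9% in hSKP2-KI mice.

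Mice of the same genotype differed in which members were high, a pattern that does not use the difference between genotypes. Deviations of each mouse from its genotype mean were correlated over the 8 mice, which leaves 6 degrees of freedom, and the mice share lobe, age and library type. Psca and Ly6d varied together (Pearson's r = 0.79, and 0.76 without hSKP2-KI replicate 4). Both were far below the mean in WT replicate 4 (-0.85 for Psca and -1.03 for Ly6d). Both were far above it in hSKP2-KI replicate 4 (1.22 and 0.60). The value was not recomputed without both mice, so it may rest on them. Ly6a varied with Ly6k (r = 0.75) and with Ly6c1 (r = 0.74). The value for Ly6a with Ly6k leaned on hSKP2-KI replicate 3, the lowest deviation for both genes (-0.33 for Ly6a and -1.93 for Ly6k). It was not recomputed without that mouse. Between these sets the values were lower, at 0.30 for Ly6a with Ly6d, 0.03 for Ly6c1 with Ly6d and -0.28 for Ly6c1 with Psca. Ly6e leaned to the side of Ly6d (r = 0.56) and Psca (r = 0.51) and away from Ly6c2 (r = -0.63). The near-identical pair Ly6c1 and Ly6c2 gave r = 0.10, which turned to -0.20 after median-ratio scaling. That scaling also moved Ly6a with Ly6e from 0.18 to 0.47, Ly6c1 with Ly6e from -0.46 to -0.15 and Ly6a with Ly6c2 from -0.46 to -0.66, while Psca with Ly6d (0.80), Ly6a with Ly6c1 (0.76) and Ly6a with Ly6k (0.66) stayed high. These are descriptions of 8 animals and carry no test.

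**Figure D3:**
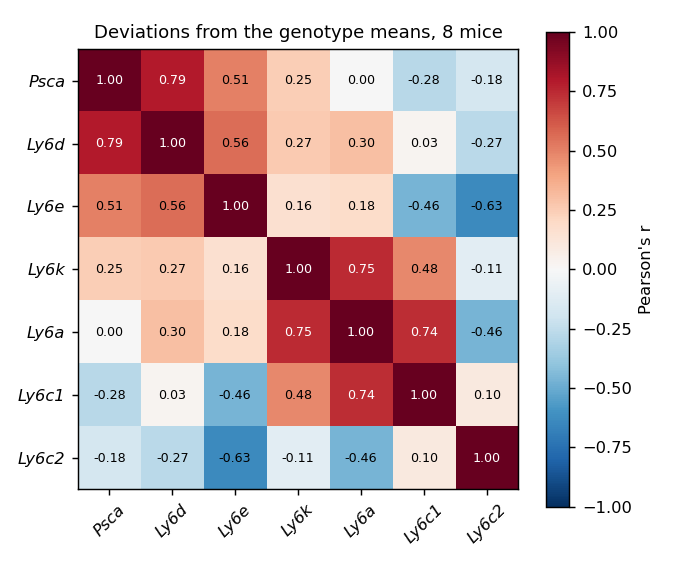
Pearson's r between the deviations of log2(TPM + 1) from the genotype means, over 8 mice, from TPM as deposited, for each pair of genes (colour scale from -1 to 1). Psca with Ly6d (0.79) and Ly6a with Ly6k (0.75) and Ly6c1 (0.74) are the highest values, and Ly6c2 with Ly6e (-0.63) is the lowest.

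Each of Ly6d, Psca and Ly6a was compared with the rest of the 9565 tested genes with a mean of at least 5 TPM. Those whose deviations followed Ly6d most closely over the 8 mice were Cd59a (r = 0.91), Clu (r = 0.90) and Sfi1 (r = 0.89). Those closest to Psca were Clu (r = 0.91), Mt1 (r = 0.89) and Pigh (r = 0.88). Those closest to Ly6a were Zbtb8os (r = 0.97), Tnfaip8 (r = 0.96) and Oaz2 (r = 0.94). Clu was thus near the top for both Psca and Ly6d. Between genotypes it went the other way, with means of 2372 TPM in WT and 521 TPM in hSKP2-KI mice. Mt1 was also lower in hSKP2-KI mice, with means of 1421 TPM in WT and 1053 TPM in hSKP2-KI mice. The correlations leave out the difference between genotypes. These values are the highest of many genes over few animals and are given as a description. Like Ly6d, Cd59a had its lowest WT value and its highest hSKP2-KI value in replicate 4. Its r with Ly6d was not recomputed without those mice.

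The relatives of these genes that the choice did not include were tested in the fit over all 13080 genes. Of 46 other Ly6/uPAR family genes, 38 were in the table and 9 were expressed enough to be tested. Of these 9, 5 were higher and 1 was lower at an adjusted p under 0.05 by limma, against 32.7% and 1.23% of all genes tested. After median-ratio scaling 4 were higher and 1 was lower, against 6.92% and 4.25%. Only 9 genes stand behind this comparison, and no test of the list itself was made. Lypd2, counted among the higher genes, met the filter only through its hSKP2-KI values, so its call is not independent of the filter. Each of the other 29 stayed at or under 0.742 TPM in all mice, and 7 of those were listed at 0 throughout. Ly6g6g and Ly6l, which the data name D730001G18Rik and Gm20654, were not among the 38. Neither was expressed enough to be tested, with Ly6g6g reaching 1.17 TPM in hSKP2-KI mice and Ly6l at 0.

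Cd59a, which blocks the membrane attack complex of complement, was the most abundant of the relatives. It was at 34.2, 25.0, 41.8 and 8.57 TPM in WT and at 96.6, 94.0, 109 and 139 TPM in hSKP2-KI mice. As for Psca and Ly6d, WT replicate 4 was lowest and hSKP2-KI replicate 4 highest. The difference was 2.14 (SE 0.37, adjusted p = 0.00349 by limma), and 1.88 with an adjusted p of 0.0203 after median-ratio scaling.

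Lynx1, a modulator of nicotinic acetylcholine receptors, was at 4.51 to 5.57 TPM in WT and 8.58 to 15.9 TPM in hSKP2-KI mice. It rose by 1.13 (SE 0.16) on the log2(TPM + 1) scale, with an adjusted p of 0.00173 by limma. Lypd2 was listed at 0, 1.32, 0 and 0.832 TPM in WT and at 6.02, 3.92, 3.01 and 4.06 TPM in hSKP2-KI mice, a rise of 1.84 (SE 0.28, adjusted p = 0.00203 by limma) that depends on the value added before the logarithm, since it was 3.64 with 0.1 in place of 1. Plaur, the urokinase receptor, went from a mean of 2.70 ± 0.558 to 5.50 ± 1.05 TPM (SD, n = 4 each), a rise of 0.81 (SE 0.15, adjusted p = 0.00431 by limma). The genotypes did not overlap for any of these 3 genes, and each call held after median-ratio scaling. Lypd2 was tested only because its hSKP2-KI values met the filter, so its p-value leans on the genotype where it is high.

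Lypd6, an extracellular regulator of Wnt signalling, was higher by 0.63 (SE 0.19, adjusted p = 0.0272 by limma), but after median-ratio scaling the adjusted p was 0.134, and without hSKP2-KI replicate 4 it was 0.0687. Ly6g6d was the relative that fell, from a mean of 8.41 to 5.84 TPM, a difference of -0.49 (SE 0.16, adjusted p = 0.0364 by limma). That call was kept in 2 of the 8 fits that left out a mouse, and the adjusted p reached 0.0876 without hSKP2-KI replicate 2. The genotypes overlapped for Ly6g6d as deposited. After median-ratio scaling they did not, with a difference of -0.72 (adjusted p = 0.0189 by limma). Gpihbp1, which holds lipoprotein lipase on capillary endothelium, was at 2.93 to 7.99 TPM in WT and 5.76 to 14.9 TPM in hSKP2-KI mice, with a difference of 0.72 (SE 0.29, adjusted p = 0.0745 by limma). Ly6g6e (0.06, adjusted p = 0.704 by limma) and Lypd3, a protein of stratified epithelium (0.05, adjusted p = 0.874 by limma), did not pass either and turned to -0.17 and -0.10 after median-ratio scaling, and Lypd3 was highest in hSKP2-KI replicate 4, at 3.51 TPM against 0.800 to 1.20 TPM in the other hSKP2-KI mice.

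**Figure D4:**
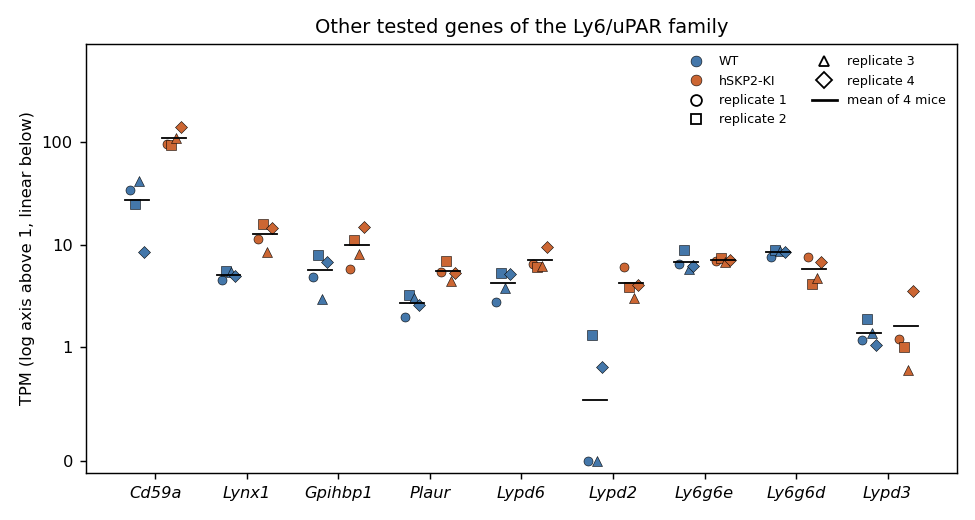
TPM of the 9 other Ly6/uPAR family genes that were tested, in each mouse (log axis above 1 TPM, linear below), with the mean of 4 mice as a line. Cd59a, Lynx1, Plaur, Lypd6 and Lypd2 lie higher in all hSKP2-KI mice than in all WT mice, and the other 4 overlap.

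The members were then set in their chromosomal order. From Psca to Gpihbp1 the annotation holds 29 protein-coding genes over 883 kb, and all 29 were in the table. Of these, 11 were expressed enough to be tested: the 7 members, Lynx1 and Lypd2, which rose, and Them6 and Gpihbp1, which did not pass the test. Lypd2 met the filter only through its hSKP2-KI values. Them6, a member of a thioesterase family that lies 6.40 kb past the start of Psca, was nearly level, with means of 28.0 and 31.3 TPM. Its difference was 0.15 (SE 0.09, adjusted p = 0.203 by limma), and -0.11 after median-ratio scaling (adjusted p = 0.553 by limma). The remaining 18 genes were near silent in both genotypes, with no mean above 0.798 TPM. Most of them lay in 2 runs, between Ly6k and Ly6e and between Ly6c2 and Gpihbp1. Of the 3 flanking genes on each side, 4 were tested. Mroh4, Arc and Jrk did not pass (adjusted p = 0.376, 0.987 and 0.642 by limma), and Top1mt passed with a difference of 0.48 (adjusted p = 0.00990 by limma) but not after median-ratio scaling (adjusted p = 0.126).

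**Figure D5:**
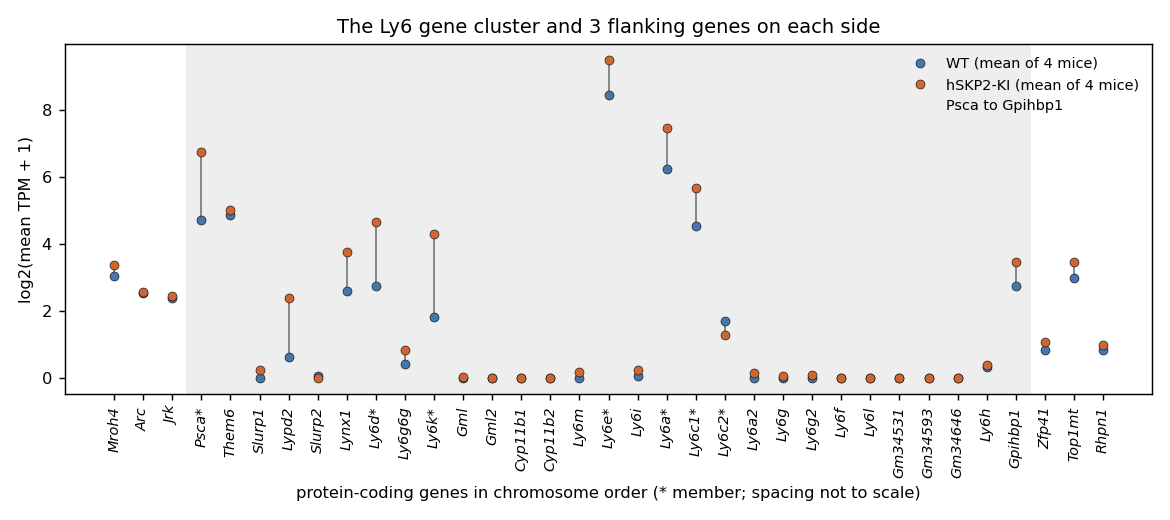
Mean level, as log2(mean TPM + 1), of the 29 protein-coding genes from Psca to Gpihbp1 (grey) and of 3 genes on each side, in chromosomal order, for 4 WT and 4 hSKP2-KI mice; asterisks mark the 7 members. Of the 29 genes, 18 lie near 0 in both genotypes, Them6 is nearly level (28.0 and 31.3 TPM) beside Psca, and Ly6c2 is the member whose hSKP2-KI mean is the lower.

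Genes of the machinery that anchors these proteins differed by small amounts. Of 31 listed genes for synthesis and remodelling of the GPI anchor, 29 were tested, and 9 were higher and 0 lower by limma, against 32.7% and 1.23% of all genes. Their median difference was 0.24, beside 0.23 for all genes. Pigyl was higher by 0.80 (SE 0.09, adjusted p = 0.000502 by limma). Pigh, a subunit of the enzyme that starts anchor synthesis, was higher by 0.39 (SE 0.09, adjusted p = 0.0115 by limma), and Pigx, a subunit of a mannosyltransferase of the pathway, by 0.36 (SE 0.09, adjusted p = 0.0122 by limma). Mppe1, which remodels the finished anchor, was higher by 0.36 (SE 0.11, adjusted p = 0.0299 by limma). After median-ratio scaling Pigyl was the 1 gene that stayed higher and Pgap2 was the 1 called lower (-0.40), so the count for this list rested on the scaling. Of 16 nicotinic acetylcholine receptor subunits, the partners of some Ly6 proteins, 2 were tested (Chrnb1 and Chrnb2) and 0 were called by limma, with 0 at an unadjusted p under 0.05. No other tool was run on that list. Chrnb4 passed, at low levels, when no filter was applied (difference 0.32, adjusted p = 0.0271 by limma).

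Markers of several cell types that carry these proteins were also higher in hSKP2-KI mice. Over 15 marker lists, the mean log2(TPM + 1) of the list was higher in every hSKP2-KI than in every WT mouse for 5 lists: epithelial, proximal luminal, urothelial, endothelial and fibroblast. Each had p = 0.0286 in a two-sided exact permutation test, the smallest value that 70 assignments allow. The adjusted p was 0.0857 over the 15 lists, and no list passed the correction. With 5 lists at the smallest possible p, the correction over 15 lists could not be passed, so nothing is read from that outcome. After median-ratio scaling 3 lists were higher without overlap, proximal luminal, urothelial and fibroblast, and the epithelial list turned from 0.22 to -0.05.

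Proximal luminal markers, which define the cells around the urethra where Psca, Ly6a and Ly6d are usually found, were summed at 532 to 630 TPM in WT and 1009 to 1579 TPM in hSKP2-KI mice. All 6 were called higher by limma as deposited, against 32.7% of all genes, and 4 after median-ratio scaling, against 6.92%. The list was chosen with earlier results of these data known, so these counts are a description. Krt4 was the clearest, with means of 33.9 and 184 TPM and a difference of 2.38 (SE 0.22, adjusted p = 0.000162 by limma). Expressed as a percentage of that marker sum in the same mouse, Psca was at 2.02% to 5.58% in WT and 3.90% to 18.7% in hSKP2-KI mice, Ly6d at 0.32% to 1.61% and 1.43% to 3.19%, and Ly6k at 0.32% to 0.71% and 0.30% to 2.23%. The mean ratio was higher in hSKP2-KI mice for Psca (4.30% and 8.78%), Ly6d (0.98% and 2.00%) and Ly6k (0.44% and 1.43%), but all 3 ratios overlapped between genotypes. Against the sum of general epithelial markers, Ly6k overlapped as well (0.11% to 0.21% in WT and 0.16% to 1.38% in hSKP2-KI mice), while Psca (0.69% to 1.83% and 2.41% to 11.0%), Ly6d (0.11% to 0.58% and 0.88% to 1.87%), Ly6a (3.75% to 4.82% and 7.02% to 10.9%) and Ly6e (14.7% to 26.6% and 31.0% to 40.2%) stayed higher in all hSKP2-KI mice. Relative to the basal epithelial sum, Ly6d was at 0.80% to 4.77% in WT and 4.86% to 9.34% in hSKP2-KI mice, without overlap. Relative to the urothelial sum, Psca overlapped (1.92% to 6.93% and 4.74% to 28.9%). The part that a change in cell makeup plays in the members' levels was not tested.

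For the vascular and stromal markers the picture was similar. Endothelial markers were summed at 23.1 to 33.3 TPM in WT and 36.5 to 63.6 TPM in hSKP2-KI mice, with Pecam1 at 8.13 and 16.7 TPM on average. Fibroblast markers were summed at 369 to 507 TPM and 690 to 1121 TPM. Relative to the endothelial sum, Ly6a was at 213% to 350% in WT and 275% to 448% in hSKP2-KI mice and Ly6c1 at 67.5% to 88.9% and 80.3% to 127%, and both overlapped. Relative to the fibroblast sum, Ly6a (14.0% to 21.9% and 16.1% to 23.7%) and Ly6c1 (4.43% to 5.44% and 5.03% to 6.33%) overlapped as well.

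Type I interferon-stimulated genes were summed at 62.8 to 78.1 TPM in WT and 69.5 to 117 TPM in hSKP2-KI mice, and 2 of 7 tested were called higher, a share near the 32.7% of all genes. Ly6e was higher relative to that sum in hSKP2-KI mice, at 380% to 572% of it in WT and 663% to 904% in hSKP2-KI mice, without overlap. Classical monocyte markers, which go with Ly6c2 in blood, were summed at 3.38 to 6.43 TPM in WT and 6.15 to 13.3 TPM in hSKP2-KI mice. Ccr2, their main chemokine receptor, rose from 2.33 to 4.62 TPM on average (0.75, SE 0.17, adjusted p = 0.00979 by limma, and 0.0636 after median-ratio scaling), while Ly6c2 overlapped between genotypes.

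Single genes from the marker lists of neighbouring tissues, but not the lists as a whole, stood out in hSKP2-KI replicate 4, the mouse with the highest Psca and Ly6d. Squamous markers were summed at 44.0 TPM there and at 1.45 to 4.56 TPM in the other 7 mice, nearly all from Sprr1a at 38.7 TPM, with Ivl at 1.74 TPM and with Krt6a and Sprr3 at 0 in all mice. Krtdap was higher in hSKP2-KI replicate 2 (4.06 TPM) than in hSKP2-KI replicate 4 (3.42 TPM). Krt13 was at 0.128 TPM in hSKP2-KI replicate 4, the lowest of the hSKP2-KI mice. The urothelial genes Upk3a (12.5 TPM), Krt20 (2.78 TPM) and Upk2 (13.6 TPM) were also highest in this mouse, but Upk1a, by far the most abundant gene of that list, was at 651 TPM there against 735 to 983 TPM in the other hSKP2-KI mice, Upk1b (43.2 TPM) was just below hSKP2-KI replicate 1 (43.8 TPM), and the summed urothelial level (723 TPM) was the lowest of the hSKP2-KI mice. Seminal vesicle markers stayed at or under 0.656 TPM in sum in all 8 mice. Without hSKP2-KI replicate 4 the number of members without overlap was again 5, and the differences were 1.46 for Psca and 1.79 for Ly6d in place of 1.86 and 1.99. Basal epithelial markers were summed at 201 to 314 and 301 to 438 TPM, macrophage markers at 72.3 to 155 and 165 to 343 TPM, T cell markers at 2.86 to 6.14 and 6.45 to 8.40 TPM, B and plasma cell markers at 9.28 to 61.2 and 33.3 to 41.7 TPM and neutrophil markers at 0.370 to 1.37 and 1.30 to 5.90 TPM in WT and hSKP2-KI mice. Ventral prostate secretory markers differed by 0.00 in mean log2(TPM + 1) as deposited and by -0.27 after median-ratio scaling, where they were lower in every hSKP2-KI than in every WT mouse.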

How the data were processed

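RNA from the ventral lobes of 4 WT and 4 hSKP2-KI mice, 1 library per mouse, was poly(A)-selected and sequenced as paired reads. The authors trimmed and mapped the reads in CLC software and deposited TPM values per gene (builds mm10 and GRCm38 in the submitters' processing notes; annotation and counting options are not given in the sources used here). TPM keeps no read depth, so counting error is unknown. Every library sums to 1000000 TPM, and libraries of a genotype correlated at 0.981 to 0.990. Members and gene lists were chosen with earlier results of these data known.

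Genes at 1 TPM or more in at least 4 of 8 mice (13080 of 36333) were fitted with limma 3.58.1 (trend) in R 4.3.3 on log2(TPM + 1), and p-values were adjusted by Benjamini-Hochberg over all genes. A fold on this scale understates changes of low genes. The step was tested on simulated data. Named genes were the members, relatives called or above 1 TPM, called anchor genes, the 2 most abundant markers of a list where they bear on a member, and neighbours in the cluster. Coordinates, transcripts and promoters come from RefSeq GRCm38.p6 and GENCODE vM21. Promoters were found for Ly6c1 and Ly6c2. Alternatives were another pseudocount, 2 filters, 3 scalings, a replicate block, weights, robust moderation and leaving out each mouse. Other markers (Sprr1a, Ivl, Upk3a, Krt20, Upk2) and Clu were singled out by their values, and ratios to marker sums were added after seeing the data.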

Additional observations from a re-analysis of the deposited data

Results flagged for a closer look

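For 16 genes in both genotypes, 32 groups of 4 mice were checked for a mouse far from the other 3, and 2 were found. Chance flags about 1 in 20 such groups. Gaps and ranges were measured on the log2(TPM + 1) scale. Psca was lowest in WT replicate 4, at 12.7 TPM against 27.6 to 30.3 TPM in the other WT mice, and on that scale the gap to the nearest was 0.891 of the whole range. Lypd6 was highest in hSKP2-KI replicate 4, at 9.58 TPM against 6.09 to 6.50 TPM in the other hSKP2-KI mice, with a gap of 0.860 of the range. Ly6d and Cd59a were also lowest in WT replicate 4, at 2.00 and 8.57 TPM, without meeting that limit.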

How the results depend on the processing

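The difference of each member kept its direction under every alternative. Scaling mattered most. Among other values, median-ratio scaling turned the epithelial list from 0.22 to -0.05 and the median of the anchor genes from 0.24 to -0.01. It also turned Ly6g6e from 0.06 to -0.17, Lypd3 from 0.05 to -0.10, Them6 from 0.15 to -0.11 and Jrk from 0.06 to -0.16. The number of genes called, 4433 as deposited, was 1461 after median-ratio scaling, 1317 after quantile normalization and 1330 without the 20 most abundant genes, and 2993 to 4677 when a mouse was left out. Under these 3 scalings, in the same order, the median difference of the members (1.19) was 0.93, 0.96 and 0.95, the anchor genes called (9, all higher) were 2, 3 and 2, of which 1, 2 and 1 were lower, and the marker lists higher without overlap (5) were 3 each time. The median difference was 1.53 at a mean of at least 5 TPM, where Ly6c2 dropped out, and 1.13 to 1.30 when a mouse was left out. Without a filter 4 anchor genes and 1 nicotinic subunit (0 otherwise) were called. Leaving out a mouse gave 3 to 6 anchor genes (3 without WT replicate 3 or hSKP2-KI replicate 1, 4 without hSKP2-KI replicate 2 or 4, 5 without WT replicate 4) and 5 to 9 marker lists (9 without WT replicate 3, 8 without hSKP2-KI replicate 1). The cause was not tested. Members higher without overlap numbered 5, or 6 without WT replicate 2 or hSKP2-KI replicate 3, which let Ly6k separate. Without WT replicate 1, Ly6c2 was lower without overlap, beside the 5 that were higher. Relatives called numbered 6, and 4 to 7 when a mouse was left out.

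The sources used here state no pairing of mice by replicate number. Correlations of same-numbered mice were 0.22, -0.11, 0.17 and -0.01. Mice of different numbers were not compared, so these values cannot decide whether the numbers pair the mice. With the replicate block 5128 genes (4433 without it) and 7 relatives (6 without it) were called, and members and their median difference (1.19) were as without it. Read depth is unknown, which limits values near 1 TPM most, those of Ly6c2, Ly6k and Lypd2 in WT mice.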
